A study of Ovis aries with 2 samples.

Results

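Cytosolic ribosomal protein genes encode the proteins of the ribosome that works in the cytoplasm. They were taken by symbol: every gene named RPL or RPS with a number, with RPLP0, RPLP1, RPLP2 and RPSA, and without the RPS6K kinases. This rule found 34 of 13765 listed features, 20 of the large subunit and 14 of the small subunit. The matrices as used here list part of the sheep genome, so the other cytosolic ribosomal protein genes, RPLP0, RPLP2 and RPSA among them, were not analysed here. Of the 34 genes, 33 had at least 20 unique molecular identifiers (UMIs, which count captured RNA molecules) over both libraries. The remaining one, RPL10L, a retrogene copy of RPL10 known mainly from testis, had 0 UMIs in both.

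The study compared nuclear RNA of cerebral cortex in 2 single-nucleus libraries, to ask how handling of the tissue alters the mix of neural cells. Both came from wild-type adult female Rambouillet sheep of 18 to 36 months with no in vivo treatment, a single animal by the series description, and both carry the same batch label. Cortex was dissected after death, minced on ice and homogenised, and nuclei were filtered and run on the Illumina T2 kit. The pre-processed library went straight to nuclei isolation, and the post-processed library first had debris and red blood cells removed. One label disagrees: the treatment field for the post-processed sample says that this removal was not done, against its title, so every direction given here rests on the titles.

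A ribosome has a small subunit, which reads the messenger RNA, and a large subunit, which joins amino acids. Each is a scaffold of ribosomal RNA dressed with about equal amounts of many proteins, and their messages are short, stable and among the most abundant in the cytoplasm. A nucleus holds few finished messages, so in nuclear libraries these genes are often read as a gauge of cytoplasmic RNA carried along with the nucleus, although nuclei also hold newly made ribosomal protein transcripts. These data cannot tell cytoplasmic from nuclear molecules of the same gene.

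The 2125 pre-processed barcodes summed to 9580441 UMIs, from 904 to 45679 each. The 905 post-processed barcodes summed to 794203 UMIs, from 44 to 24968 each, and 494 of them had at least 100 detected genes and were kept as nuclei. The libraries shared 0 barcodes. Of the pre-processed nuclei 45.6% were neuron-like and 4.05% microglia-like, and of the post-processed nuclei 0% and 82.2%. No class was given to 410 pre-processed nuclei and 0 post-processed nuclei. The 17 listed neuronal markers summed to 3.02% of pre-processed and 0.0742% of post-processed UMIs, with 6 of the 17 at 0 in the latter, and the 10 listed microglial markers to 0.0343% and 0.864%, with none at 0. GFAP, MBP, SNAP25 and the haemoglobin genes were not analysed here. With 1 library per condition there was no replicate and no test was run. Intervals in brackets are exact 95% intervals for counting error only, and nuclei vary more than counting does.

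Ribosomal protein genes took a larger part of the RNA in the post-processed library. They held 17372 UMIs, or 0.181% (0.179 to 0.184), in the pre-processed nuclei and 6420 UMIs, or 0.839% (0.819 to 0.860), in the post-processed nuclei. The post-processed share was 4.63-fold higher, a log2 ratio of 2.21 (2.17 to 2.25). The middle nucleus gave 0.175% before and 0.675% after processing. The ranges overlapped widely, with the middle 50% of nuclei between 0.0957 and 0.322% in the pre-processed library and between 0.212 and 1.5% in the post-processed library. The median listed gene with at least 20 UMIs was itself 0.33 higher on the log2 scale, and set against that median the ribosomal log2 ratio was 1.88. Cell classes and depth differed between the libraries together with this ratio, and it is given by class and by depth further on.

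Of the 33 genes with at least 20 UMIs, 32 were at least 2-fold higher in counts per 1000000 listed UMIs (CPM) in the post-processed nuclei. Among all 7615 listed genes with that many UMIs, 30.4% were at least 2-fold higher. None of the 33 was at least 2-fold lower, against 24.7% of all. The median log2 ratio was 2.55 over the 33 ribosomal protein genes. Large-subunit genes had a median of 2.47 and small-subunit genes 2.87.

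The member with most UMIs was RPLP1, a protein of the stalk by which the large subunit engages the factors of protein synthesis. It stood at 132 CPM in the pre-processed and 600 CPM in the post-processed nuclei, a log2 ratio of 2.19 (2.03 to 2.34). RPL11, which enters the large subunit together with RPL5 and a small ribosomal RNA, stood at 59.0 and 336 CPM, a log2 ratio of 2.51 (2.29 to 2.72). RPL5 itself, at 33.5 and 116 CPM, had a log2 ratio of 1.80 (1.44 to 2.14). RPL8, which lies close to the catalytic centre, stood at 81.9 and 315 CPM, a log2 ratio of 1.94 (1.73 to 2.15). RPL31, at the rim of the peptide tunnel, stood at 77.7 and 328 CPM, a log2 ratio of 2.08 (1.87 to 2.29). RPL24, which reaches across to the small subunit, stood at 67.1 and 251 CPM, a log2 ratio of 1.91 (1.66 to 2.14). Each of these large-subunit genes was thus several times higher in the post-processed nuclei, and no interval came near 0.

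In the small subunit, RPS28, at the exit of the messenger RNA channel, stood at 112 and 399 CPM, a log2 ratio of 1.83 (1.64 to 2.02). RPS7 stood at 89.3 and 315 CPM, a log2 ratio of 1.82 (1.61 to 2.03). RPS27A, which is made as a fusion of ubiquitin with a ribosomal protein, stood at 28.9 and 231 CPM, a log2 ratio of 3.0 (2.72 to 3.28). RPS6, the small-subunit protein phosphorylated by S6 kinases, stood at 15.1 and 110 CPM, a log2 ratio of 2.86 (2.45 to 3.26). RPS28 and RPS7 thus differed less between the libraries than RPS27A and RPS6, and their intervals did not overlap. RPS27A and RPS6 were named after their values were seen, so this contrast only describes picked genes.

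The genes did not all differ by the same factor, and the intervals at both ends did not overlap. The smallest ratio was that of RPL37A, a zinc-binding large-subunit protein, at 129 CPM in the pre-processed and 201 CPM in the post-processed nuclei, a log2 ratio of 0.64 (0.39 to 0.88). RPL3, whose loop reaches the catalytic centre, followed with 108 and 251 CPM and a log2 ratio of 1.23 (0.99 to 1.45). RPL7A stood at 110 and 308 CPM, a log2 ratio of 1.5 (1.28 to 1.70), and RPS14, of the small-subunit platform, at 117 and 386 CPM, a log2 ratio of 1.72 (1.53 to 1.91). At the other end were RPS23, a protein of the decoding centre, with 26.4 and 220 CPM and a log2 ratio of 3.06 (2.77 to 3.34), and RPS20, with 34.8 and 301 CPM and a log2 ratio of 3.11 (2.86 to 3.36). RPS26, also at the messenger RNA exit, stood at 16.1 and 144 CPM, a log2 ratio of 3.16 (2.79 to 3.52). The highest estimate, 3.43 (2.43 to 4.40) for the paralog RPL22L1, rests on 21 and 18 UMIs. The paralog RPS27L had 105 and 28 UMIs and a log2 ratio of 1.76 (1.08 to 2.35).

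**Figure D1:**
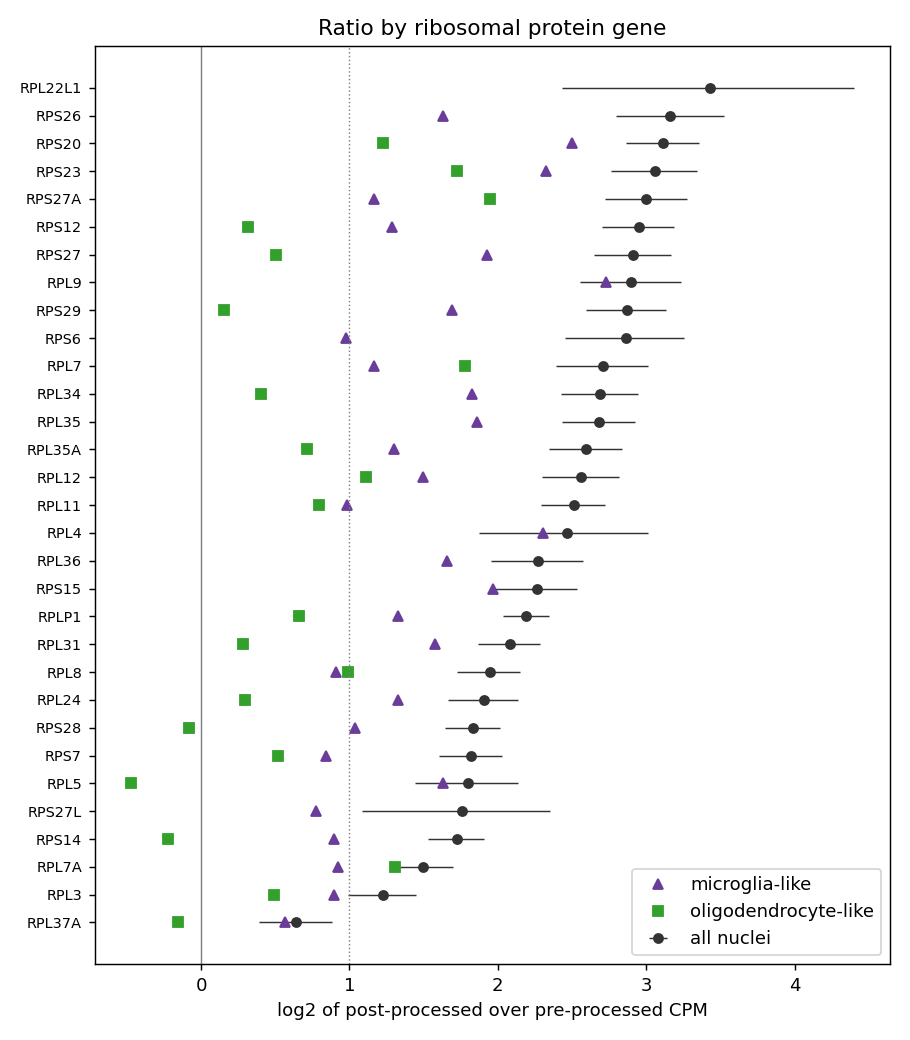
Log2 ratio of post-processed over pre-processed CPM for 31 ribosomal protein genes with at least 20 UMIs in the comparison, in all nuclei (circles, bars are exact 95% counting intervals), microglia-like nuclei (triangles) and oligodendrocyte-like nuclei (squares); the solid line marks no difference and the dotted line 2-fold. In all nuclei RPL37A lies lowest at 0.64 and RPL22L1 highest at 3.43, and most triangles lie left of their circles.

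The mixture of ribosomal protein messages therefore differed between the libraries. RPL37A, RPL3, RPL7A and RPS14, picked because their ratios were smallest, made up 25.6% (24.9 to 26.2) of ribosomal UMIs in the pre-processed nuclei and 13.7% (12.8 to 14.5) in the post-processed nuclei. A lower part after processing follows from this choice and is no evidence of its own. Within the pre-processed library the same 4 genes made up 29.7% (28.8 to 30.7) in neuron-like, 21.8% (20.3 to 23.3) in astrocyte-like and 19.1% (15.6 to 22.9) in microglia-like nuclei. In post-processed microglia-like nuclei they made up 13.1% (12.2 to 14.0). Those nuclei hold 5356 of the 6420 post-processed ribosomal UMIs from which the 4 genes were picked, so nothing is read from this value. Neuron-like nuclei hold 8891 of the 17372 pre-processed ribosomal UMIs used for the same choice, so their value is not independent of it. Large-subunit genes held 60.5% (59.8 to 61.2) of ribosomal UMIs in the pre-processed and 54.4% (53.1 to 55.6) in the post-processed nuclei. Within microglia-like nuclei that part was 55.7% (51.1 to 60.3) and 53.8% (52.5 to 55.2), and the intervals overlapped. The order of the 33 genes by their part of ribosomal UMIs was similar in both libraries (Spearman's rho 0.83 across genes, which are not independent replicates).

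Depth per barcode went along with the ribosomal share in both libraries. In the pre-processed library the share was 0.445% in 121 barcodes of 500 to 1000 UMIs, 0.347% in 755 barcodes of 1000 to 2000, 0.234% in 672 barcodes of 2000 to 5000, and 0.117% in 217 barcodes of 10000 to 20000. In the post-processed library it was 4.37% in 74 barcodes under 50 UMIs, 2.05% in 146 barcodes of 100 to 200 and 0.560% in 91 barcodes of 2000 to 5000. Above that depth the post-processed library turned upward, to 0.859% in 21 barcodes of 5000 to 10000 and 1.05% in the 2 barcodes over 20000. The ribosomal share of the post-processed library was higher at every matched depth, by 2.57-fold from 500 to 1000 UMIs, 2.60-fold from 1000 to 2000 and 2.39-fold from 2000 to 5000. From 5000 to 10000 UMIs it was 5.77-fold higher, where the pre-processed barcodes were mostly neuron-like (267 of 321) and the post-processed ones mostly microglia-like (19 of 21). The 8 post-processed barcodes of at least 10000 UMIs, of which 7 were microglia-like, held 1099 of the 6420 ribosomal UMIs, and without barcodes of that depth in either library the log2 ratio was 1.86.

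**Figure D2:**
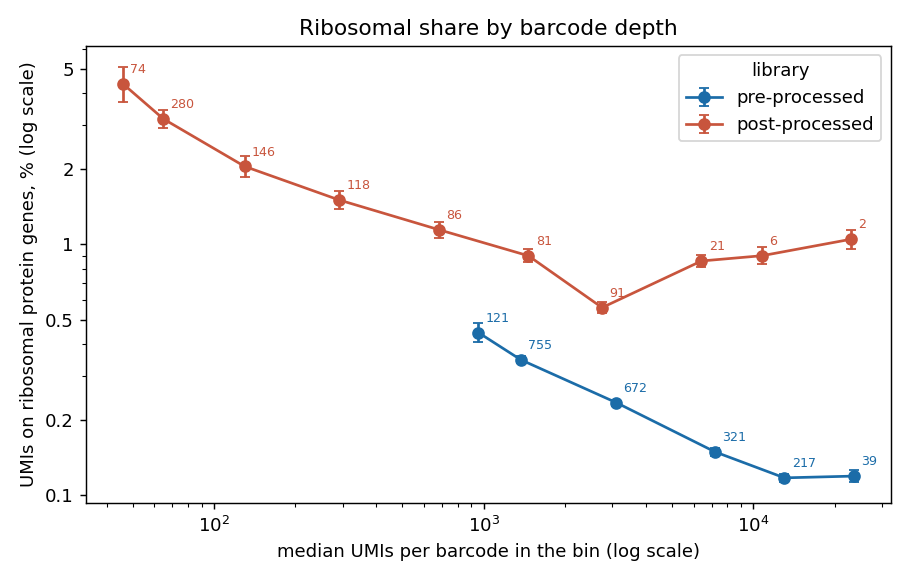
Share of listed UMIs on ribosomal protein genes (log scale) against the median UMIs per barcode of each depth bin (log scale), for all barcodes of both libraries; bars are exact 95% counting intervals and numbers give the barcodes per bin. The pre-processed share runs from 0.445% down to 0.119%, and the post-processed share runs from 4.37% down to 0.560% and back to 1.05%.

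The post-processed barcodes with fewer than 100 detected genes were richest in these messages. Their 411 barcodes held 953 ribosomal UMIs of 28995, or 3.29% (3.08 to 3.50), at a median of 64 UMIs. Of the 32 ribosomal protein genes with at least 20 UMIs here, 31 were at least 2-fold higher in CPM than in the post-processed nuclei, against 20.3% of all genes tested. RPL5 was the gene under 2-fold, on 5 UMIs in these barcodes. RPL37A was among the 31, at a log2 ratio of 2.12. Respiratory chain genes were higher in the same barcodes as well, of which 18 of 31 were at least 2-fold higher, and their median log2 ratio was 1.16 against 2.06 for the ribosomal protein genes.

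Within neuron-like nuclei of the pre-processed library the broad cell class is held, but clusters with median UMIs from 2900 to 16692 are pooled. The share was 0.238% (1351 UMIs) in 299 nuclei under 3000 UMIs and 0.111% (3728 UMIs) in 225 nuclei of at least 10000 UMIs. That is a log2 ratio of 1.10 (1.01 to 1.19), and the part of neuron subtypes in it was not tested. Of 32 ribosomal protein genes 17 were at least 2-fold higher in the shallow nuclei, against 17.2% of all genes tested. Other short genes were as high: genes spanning less than 5000 bases had a median log2 ratio of 1.08 there, and the 24 ribosomal protein genes of that span 1.13. Long neuronal genes, which are rich in unspliced RNA, went the other way, with a median of -0.46 and 17 of 17 lower. Across the 969 neuron-like nuclei the ribosomal share had a Spearman's rho of -0.44 with UMIs per nucleus and -0.43 with the share of those long genes, as a description of 1 library in which the measures share their denominator.

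RPL37A again stood apart along depth. In the pre-processed library it stood at 160 CPM in barcodes under 1500 UMIs and 122 CPM in barcodes of at least 8000, a ratio of 1.31. RPL3 had 153 and 81.7 CPM, a ratio of 1.87. RPLP1, at 390 and 72.8 CPM, had a ratio of 5.36, and RPS27, at 102 and 17.0 CPM, one of 6.03, the highest of the 33. In neuron-like nuclei alone the log2 ratio of shallow over deep was 0.34 for RPL37A, 0.96 for RPL3, 1.25 for RPLP1 and 1.80 for RPS28. Another gene, the only 1 of 32 below 0, stood at -0.08, so RPL37A was not the lowest within this class. The cell classes of shallow and deep barcodes differ, and their part in the profiles of the whole library was not tested.

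**Figure D3:**
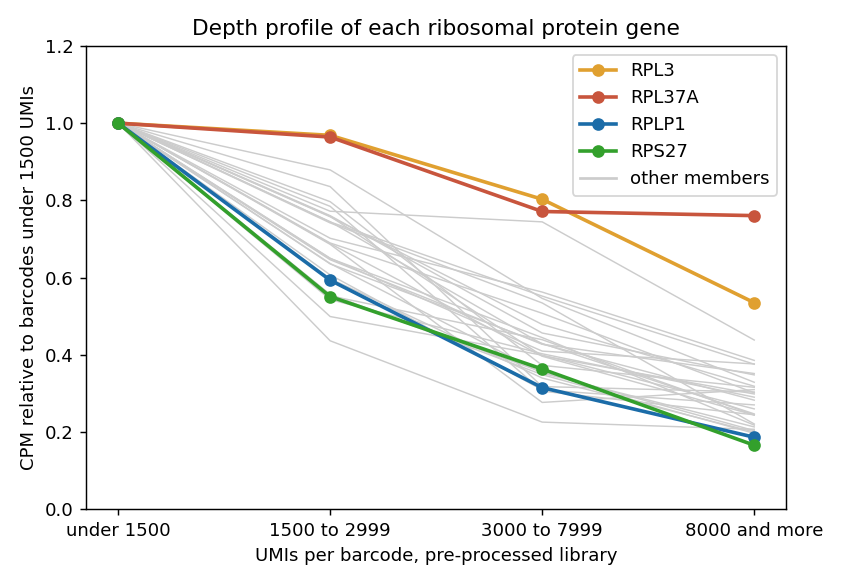
CPM of each ribosomal protein gene with at least 50 UMIs in 4 depth bins of the pre-processed library, relative to its CPM in barcodes under 1500 UMIs. RPL37A falls least (from 160 to 122 CPM), RPL3 stays above most, and RPLP1 and RPS27 end lowest among the 4 genes drawn in colour.

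The gene models differ in span, the distance from first to last base of the gene, as read from the RefSeq table of ARS-UI_Ramb_v3.0, in which all 34 symbols were found. The ribosomal protein genes spanned 645 to 18628 bases with a median of 3439, against 16735 over all listed genes. RPL37A had the longest span, 18628 bases, and the next, RPS6, had 9484. Across the 33 genes the span had a Spearman's rho of -0.38 with the log2 ratio between libraries and -0.54 with the ratio of shallow over deep barcodes, given as a description over genes that share their libraries. Small nucleolar RNA genes lie within 9 of the members, among them RPL5, RPL7A, RPL12, RPL3, RPL4, RPS12 and RPS20. The median log2 ratio was 2.55 over those 9 and 2.55 over the other 24. RPL35A, RPS6, RPL35 and RPL9 overlap the listed genes IQCG, DENND4C, WDR38 and LIAS. Whether counting used strand, and how it treated the many processed copies of ribosomal protein genes in mammalian genomes, is not stated in the sources, so reads of such pairs and copies could be split between them.

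The share differed between cell classes inside the pre-processed library. It was 0.134% (0.132 to 0.137) in 969 neuron-like nuclei, 0.177% (0.162 to 0.193) in 109 oligodendrocyte precursor-like nuclei, 0.215% (0.199 to 0.232) in 181 oligodendrocyte-like nuclei and 0.285% (0.275 to 0.295) in 360 astrocyte-like nuclei. It was 0.356% (0.325 to 0.389) in 86 microglia-like nuclei and 1.66% (1.48 to 1.85) in 10 endothelial-like nuclei. No neighbours in this order had overlapping counting intervals, but the middle 50% of nuclei overlapped for most classes, at 0.0815 to 0.208% in neuron-like, 0.128 to 0.384% in astrocyte-like and 0.184 to 0.538% in microglia-like nuclei. Those of the 10 endothelial-like nuclei, 0.750 to 2.17%, lay above. Neuron-like nuclei were lowest for 25 of 33 genes and endothelial-like nuclei highest for 31. The same count over all listed genes is not given here, so nothing particular to these genes is read from that order. Median depth differed as well, at 5201 UMIs in neuron-like, 2608 in astrocyte-like, 1599.5 in endothelial-like and 1294 in microglia-like nuclei. Between 2000 and 5000 UMIs the share was 0.192% in neuron-like, 0.263% in astrocyte-like and 0.203% in microglia-like nuclei. The last value rests on 16 nuclei and 91 ribosomal UMIs. It was 0.158% in oligodendrocyte-like and 0.141% in oligodendrocyte precursor-like nuclei, so the order of the classes changed in this depth bin. Between 1000 and 2000 UMIs the share was 0.238% in neuron-like, 0.236% in oligodendrocyte precursor-like and 0.244% in oligodendrocyte-like nuclei. Astrocyte-like nuclei had 0.374% there, microglia-like nuclei 0.441% and 5 endothelial-like nuclei 1.65%. In that bin the pooled order held, except that neuron-like and oligodendrocyte precursor-like nuclei were alike.

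The step from neuron-like to astrocyte-like nuclei was uneven over the genes. The log2 ratio of the share was 1.08 (1.03 to 1.14), and 20 of 32 genes were at least 2-fold higher in astrocyte-like nuclei, against 26.6% of all genes tested. RPS29, a zinc-binding protein of the small subunit, stood at 15.6 CPM in neuron-like and 91.1 CPM in astrocyte-like nuclei, a log2 ratio of 2.55. RPS27 had a log2 ratio of 2.01 and RPLP1 one of 1.87. At the low end RPL37A stood at 121 and 131 CPM, a log2 ratio of 0.12, and RPL35A stood at 0.52 and RPL7A at 0.67.

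A cluster of 365 pre-processed barcodes that the naming rule left unnamed had a ribosomal share of 0.465% (0.448 to 0.482) at a median of 1257 UMIs. S100B and NEFL led it, and RPS23 and RPLP1 were among its 10 leading genes although the clustering left them out. A similar cluster, also led by S100B, was named astrocyte-like in finer clusters (353 barcodes) and with doublet calls removed (358 barcodes). In the cluster of 365 barcodes the name therefore depends on the setting. Its neuronal markers summed to 2.85% of UMIs, against 3.68% in neuron-like nuclei, and its astrocyte markers to 0.131% against 0.0310%. Against neuron-like nuclei 29 of 32 ribosomal protein genes were at least 2-fold higher, beside 16.7% of all genes tested. RPS29 (log2 ratio 2.81), RPS23 (2.79), RPLP1 (2.66) and RPS6 (2.45) differed most, and RPL3 (0.49), RPL37A (0.72) and RPL5 (0.87) least. Respiratory chain genes were at least 2-fold higher for 17 of 35 in the same comparison.

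**Figure D4:**
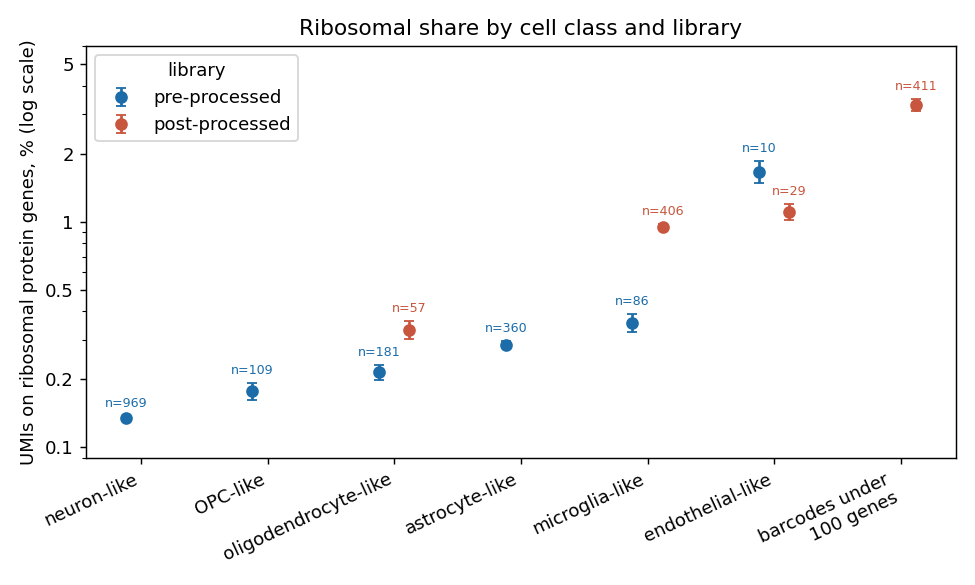
Share of listed UMIs on ribosomal protein genes (log scale) by cell class, in the pre-processed (blue) and post-processed (red) library; bars are exact 95% counting intervals and classes with fewer than 10 nuclei in a library are left out. Microglia-like nuclei stand at 0.356 and 0.95% and oligodendrocyte-like nuclei at 0.215 and 0.330%, while endothelial-like nuclei stand at 1.66 and 1.10%.

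Microglia-like nuclei were present in both libraries, which allows a comparison within a class. Their ribosomal share was 0.356% (472 UMIs, 86 nuclei) before and 0.95% (5356 UMIs, 406 nuclei) after processing, a log2 ratio of 1.42 (1.28 to 1.56). The class holds a deeper cluster with 85 pre-processed and 176 post-processed nuclei, led by DMP1 and IL1A among others, and a shallow cluster with 1 and 230 nuclei, in which the complement genes C1QC and C1QA and the early gene FOS were among the leaders. In the deeper cluster alone the shares were 0.345 and 0.812%, a log2 ratio of 1.24 (1.09 to 1.38), and 20 of 32 ribosomal protein genes were at least 2-fold higher, against 10.2% of all genes tested. At matched depth the class had 0.441 and 0.880% between 1000 and 2000 UMIs, a log2 ratio of 1.0 (0.81 to 1.18), and 0.203 and 0.689% between 2000 and 5000 UMIs, a log2 ratio of 1.77 (1.45 to 2.09), on 16 pre-processed nuclei. Coarser clusters, which merged endothelial-like nuclei into this class, gave 0.89. The sum of the 10 listed microglial markers was alike in both libraries, at 1.16 and 1.15% of UMIs. Neuronal markers summed to 0.525 and 0.0633% and astrocyte markers to 0.0618 and 0.00869%. Oligodendrocyte markers summed to 0.172 and 0.210%, fibroblast markers to 0.0264 and 0.0632% and endothelial markers to 0.0121 and 0.0374%. In finer clusters, 27 pre-processed and 27 post-processed nuclei closest to microglia stayed unnamed, with the oligodendrocyte marker ERMN among their leading genes. The part of these other cell types in the result was not tested.

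All 32 ribosomal protein genes with at least 20 UMIs in microglia-like nuclei were higher after processing. At least 2-fold higher were 23, against 11% of all genes tested, and at least 2-fold lower none, against 11.8%. The median log2 ratio was 1.41 over these genes and -0.05 over all genes tested. RPL9, a large-subunit protein near the stalk, stood highest with 3 and 98 UMIs, 22.6 and 174 CPM and a log2 ratio of 2.73 (1.35 to 5.24). RPS20 followed with 8 and 204 UMIs and a log2 ratio of 2.50 (1.58 to 3.82), RPS23 with 6 and 138 UMIs and 2.33 (1.28 to 3.91), and RPL4 with 1 and 31 UMIs and 2.30 (0.28 to 8.22). The lowest were RPL37A, at 136 and 206 CPM with a log2 ratio of 0.57 (-0.12 to 1.41), RPS27L at 0.78 (-0.74 to 3.34), RPS7 at 0.84 (0.25 to 1.55) and RPS14 at 0.90 (0.38 to 1.51). RPLP1 stood at 271 and 688 CPM, a log2 ratio of 1.32 (0.85 to 1.88). The intervals of most genes overlap each other here because the pre-processed class had 472 ribosomal UMIs in all.

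Post-processed microglia-like nuclei of the deeper cluster were uneven among themselves. Over nuclei of at least 1000 UMIs, 30 of 126 post-processed and 3 of 76 pre-processed nuclei had more than 1% ribosomal UMIs, a bound chosen after the values were seen. The lowest 10% of nuclei were alike, under 0.129% and under 0.114%. The lowest value was 0 in both, so this likeness lies near the floor of counting. The highest 10% lay over 1.56% and over 0.820%. Depth was not matched, as the cluster reached 24968 UMIs in post-processed and 4393 in pre-processed nuclei. The medians were 0.505 and 0.286%. The post-processed library therefore had nuclei with ribosomal shares as low as before processing beside others well above them. Across the 126 post-processed nuclei the ribosomal share had a Spearman's rho of 0.57 with the share of ribosome partner genes, 0.52 with respiratory chain genes, 0.40 with elongation factors, 0.20 with UMIs per nucleus and 0.08 with immediate early genes, as a description of nuclei from 1 library. Across the 76 pre-processed nuclei of the cluster the same values were 0.02 for partner genes, 0.48 for respiratory chain genes, 0.10 for elongation factors, -0.23 for UMIs per nucleus and 0.24 for immediate early genes. Partner genes held 0.0533% of pre-processed and 0.0896% of post-processed UMIs of the cluster, so their counts per nucleus were sparse. Sparse counts limit each rho, and the measures share their denominator, so no difference between the libraries is read from these values.

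The shallow cluster was richer still. Its post-processed nuclei had 1.90% ribosomal UMIs against 0.812% in the deeper cluster, and 26 of 32 genes were at least 2-fold higher, against 13.9% of all genes tested. RPL4, RPL11 and RPS23 differed most, with log2 ratios of 1.75, 1.72 and 1.65, and RPS12 least, with 0.29. Other genes spanning less than 5000 bases had a median log2 ratio of 1.01 in the same comparison, and the 24 ribosomal protein genes of that span 1.32.

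In oligodendrocyte-like nuclei the share was 0.215% (647 UMIs, 181 nuclei) before and 0.330% (460 UMIs, 57 nuclei) after processing, a log2 ratio of 0.62 (0.44 to 0.79). Of 24 genes with at least 20 UMIs 20 were higher, 6 of them at least 2-fold, against 4.5% of all genes tested. None was at least 2-fold lower, against 13.7%, and the median log2 ratio was 0.59 against -0.07. RPS27A had 11 and 20 UMIs and a log2 ratio of 1.95 (0.84 to 3.18), RPL7 8 and 13 UMIs and 1.78 (0.43 to 3.29), RPS23 9 and 14 UMIs and 1.72 (0.44 to 3.14), and RPL7A 27 and 31 UMIs and 1.31 (0.52 to 2.11). At the other end RPL5 stood at -0.47, RPS14 at -0.22, RPL37A at -0.15 and RPS28 at -0.08, each with an interval on both sides of 0. Only 6 of the 24 genes had an interval wholly above 0. The middle nucleus had 0.171 and 0.208%, but among nuclei of at least 1000 UMIs the order turned, with medians of 0.169% over 169 pre-processed and 0.159% over 47 post-processed nuclei. There 6 of the 47 and 2 of the 169 had more than 1% ribosomal UMIs, and 38.3 and 30.8% of post- and pre-processed nuclei lay under 0.1%. The pooled ratio thus came with a high minority of post-processed nuclei and not with a higher middle nucleus at that depth. At matched depth the log2 ratio was 1.07 (0.35 to 1.80) under 1000 UMIs, 0.74 (0.40 to 1.07) between 1000 and 2000 and 0.94 (0.66 to 1.22) between 2000 and 5000. Within this class neuronal markers summed to 0.382 and 0.0840% of UMIs before and after processing, astrocyte markers to 0.0385 and 0.00216% and microglial markers to 0.00964 and 0.0309%, and their part in the result was not tested. When classes were taken from marker UMIs of each nucleus in place of clusters, the log2 ratio was 1.40, on 217 and 86 nuclei, beside 1.30 for microglia-like nuclei named in that way, so the order of these classes turned with the naming.

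Endothelial-like nuclei had the highest pooled share among the named classes of both libraries and the opposite direction between them. In the post-processed library the middle nucleus had 0.725%, against 0.738% in microglia-like nuclei, and 1 nucleus held 71 of the 550 ribosomal UMIs. The share was 1.66% (321 UMIs, 10 nuclei) before and 1.10% (550 UMIs, 29 nuclei) after processing, a log2 ratio of -0.59 (-0.79 to -0.38). Of 22 genes 18 were lower, 4 of them at least 2-fold, against 10.1% of all genes tested, and none was at least 2-fold higher, against 18.2%. RPL7A (-1.63), RPS27 (-1.27), RPLP1 (-1.11) and RPS20 (-1.0) were lowest, and RPL11 (0.43), RPL34 (0.16), RPS23 (0.13) and RPS12 (0.01) highest. This direction rests on few nuclei: 1 pre-processed nucleus held 88 of the 321 UMIs, and without it the log2 ratio was -0.33 (-0.55 to -0.10). With classes from marker UMIs the direction turned, to 2.06 on 27 and 34 nuclei. Markers of mural cells summed to 0.600% of UMIs in the pre-processed and 0.149% in the post-processed nuclei of this class, beside 0.393 and 0.95% for endothelial markers, and none of the 5 mural markers was at 0 in either. Fibroblast markers summed to 0.103 and 0.00402%, with 1 and 4 of 5 at 0, and neuronal markers to 0.563 and 0.0884%. The part of these other cell types in the result was not tested.

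The share of nuclei with at least 1 ribosomal UMI depends on depth and was therefore counted after each nucleus was thinned to 200 UMIs, leaving out 89 shallower post-processed nuclei, all microglia-like. It was 36.5% (34.5 to 38.6) in the pre-processed and 65.4% (60.6 to 70.1) in the post-processed nuclei, and 96.8 and 88.1% without thinning, so the unthinned shares have the opposite order. In microglia-like nuclei the thinned shares were 52.3% (41.3 to 63.2) and 68.8% (63.4 to 73.8). In oligodendrocyte-like nuclei they were 32.0% (25.3 to 39.4) and 42.1% (29.1 to 55.9), with overlapping intervals. Every cell class makes ribosomal proteins, so no class here can serve as a blank for free RNA.

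Genes that work with the ribosome were compared from lists chosen by function. RACK1 (bound to the small subunit), NACA (bound to new peptides at the tunnel exit) and SERBP1 (bound to idle ribosomes) belong to a list of 4 ribosome partners outside the symbol rule. All 4 were at least 2-fold higher in the post-processed nuclei, against 30.4% of all genes tested. The log2 ratios were 1.45 for RACK1, 1.78 for NACA and 1.43 for SERBP1. RACK1 stood at 97.5 CPM in the pre-processed and 265 CPM in the post-processed nuclei. In microglia-like nuclei all 4 were higher and 2 at least 2-fold, against 11% of all genes tested. Among these 2 was NACA, at 2.19 on 2 and 48 UMIs. In oligodendrocyte-like nuclei none was at least 2-fold higher, against 4.5% of all genes tested, and 2 of 4 were lower.

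Elongation factors, which carry the ribosome along the message, were all higher in the post-processed nuclei (6 of 6, of which 3 passed 2-fold, beside 30.4% of all genes), and their median was 1.05 on the log2 scale. EEF1A1, which delivers transfer RNA, had a log2 ratio of 2.08, EEF1B2 2.86, EEF1D 0.94 and EEF2, which moves the ribosome by a codon, 0.80. TSFM, a mitochondrial factor, was lowest at 0.56. In microglia-like nuclei 3 of 5 were higher, none at least 2-fold, with a median of 0.03, EEF1A1 at 0.99 and EEF2 at -0.57. Of 15 initiation factors 5 were at least 2-fold higher in all nuclei, a part near the 30.4% of all genes, with a median of 0.52, from EIF4A2 at 2.07 to EIF4G1 at -0.82, and EIF4G3 and EIF5B, those with most UMIs, stood at -0.01 and 0.05. In microglia-like nuclei none of the 15 was at least 2-fold higher, against 11% of all genes tested, and the median was 0.08.

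Mitochondrial ribosomal proteins, which build the separate ribosome of mitochondria, had 5 of 36 at least 2-fold higher. Their median was 0.41, close to the 0.33 of all genes. Of all genes tested 30.4% were at least 2-fold higher, a larger part than in any group of this paragraph. MRPL44 stood at 2.24 and MRPS22 at -1.47, and MRPL1 and MRPL3, with most UMIs, at -0.95 and -0.55. Ribosome biogenesis genes had a median of 0.00 with 2 of 20 at least 2-fold higher, from NCL (nucleolin) at 1.71 to TCOF1 at -0.95, with NOP58 at 0.27. Of 8 genes in the control of ribosomal protein translation 1 was at least 2-fold higher, the kinase gene RPS6KA1 at 4.18 (10.02 and 182 CPM), which in microglia-like nuclei stood at -0.02. LARP1, which binds ribosomal protein messages, stood at 0.00 and TSC1 at 0.07, and RPS6KL1 was lowest at -0.45. In microglia-like nuclei the medians of these groups were 0.01, -0.15 and -0.20.

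Other abundant messages set the ribosomal protein genes in scale. Nuclear-encoded respiratory chain genes had a median log2 ratio of 0.72 in all nuclei with 13 of 35 at least 2-fold higher, beside 30.4% of all genes, among them NDUFA13 at 2.21 and ATP5F1B at 1.28, while SDHB stood at -0.08 and NDUFS7 at -1.38. In microglia-like nuclei their median was 0.20 with 4 of 29 at least 2-fold higher, near the 11% of all genes. Other short cytoplasmic messages had medians of 0.53 and 0.17, from TMSB10 at 4.93 to S100B at -1.19 in all nuclei, with PKM at -0.17. Genes spanning less than 5000 bases, ribosomal ones left out, had a median of 0.57 in all nuclei and 0.23 in microglia-like nuclei, against 2.66 and 1.64 for the ribosomal protein genes of that span. Immediate early genes, which switch on within minutes of a stimulus, were at least 2-fold higher for 8 of 9 in microglia-like nuclei with a median of 3.20, and FOS went from 7.54 to 2844 CPM there, on 1 UMI in the pre-processed nuclei.

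**Figure D5:**
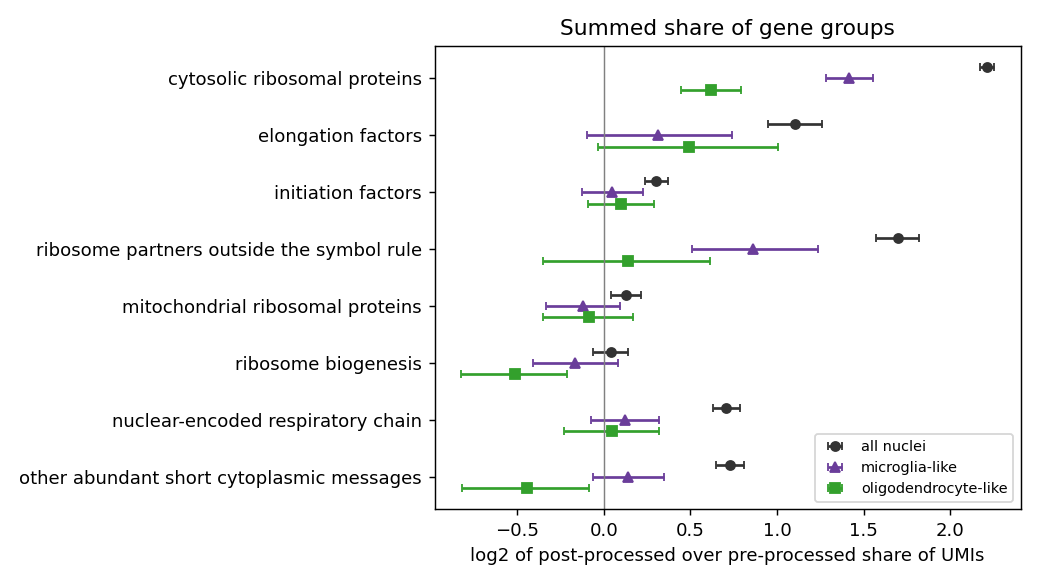
Log2 ratio of the summed share of UMIs, post-processed over pre-processed, for the cytosolic ribosomal protein genes and 7 other gene groups, in all nuclei (circles), microglia-like nuclei (triangles) and oligodendrocyte-like nuclei (squares); bars are exact 95% counting intervals. In microglia-like nuclei the ribosomal protein genes stand at 1.42 and the ribosome partners at 0.86, and the other groups drawn lie between -0.17 and 0.31.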

How the data were processed

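The authors deposited 2 matrices of raw UMI counts, whole numbers for each gene in each barcode. DRAGEN is named in the submitters' processing notes and Seurat in the series description. No source used here gives the DRAGEN version, genome build, annotation or barcode calling, and positions in the genome are therefore left out. The 13765 features carry 12652 symbols. Features with the same symbol were kept apart, so counts over all listed genes are counts of features. The study speaks of about 5000 nuclei per condition, and the files hold 2125 and 905 barcodes.

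Barcodes with at least 100 detected genes of both libraries were clustered without the ribosomal protein genes, using Seurat 5.3.0 in R 4.3.3. Counts were log-normalized to 10000 per barcode, and 2000 variable genes, 30 principal components and a resolution of 0.5 were used. A cluster was named "-like" when at least 3 listed markers of a class were 1.5-fold above the 25th percentile of the other clusters, unless another class led its 10 leading genes. Where the median UMI count of a cluster was below that of its main library divided by 2, a marker of its class had also to be among those 10. This naming rule was written after the clusters were seen. Scrublet in scanpy 1.11.5 called 4 and 0 doublets, too few to have worked, and none were removed.

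Shares are summed UMIs of members over summed UMIs. Ratios add 0.5 counts and are given for genes with at least 20 UMIs in the comparison. Intervals are Clopper-Pearson or exact conditional binomial ones. The interval code was tested on simulated counts. "At least 2-fold" is a size, not a test, and "tested" genes are those that passed the UMI minimum. UMIs of this kit are not scaled by gene length, so an order of genes by UMIs, where given, is not read as an order of RNA levels.

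Genes given values were the 12 with most UMIs, the 4 highest and 4 lowest ratios and the paralogs, within classes the 4 highest and 4 lowest, and in each list the 2 with most UMIs and both extremes. RPL5, RPS6, RPS27A, RPS27, EEF1A1 and others outside this rule were named after their values were seen. Members, lists and markers were chosen with earlier results of these data known. Alternatives covered the gene minimum, membership, scale, count added, clustering, class names, doublets and single nuclei. Sequence features of the members were not used here. Some genes that this rule names are not reported here, although they are part of every sum, count and median.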

Additional observations from a re-analysis of the deposited data

Results flagged for a closer look

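The ribosomal share of endothelial-like nuclei was lower in the post-processed library, at a log2 ratio of -0.59 (counting interval -0.79 to -0.38, 10 pre-processed and 29 post-processed nuclei), while that of microglia-like nuclei was higher, at 1.42 (1.28 to 1.56). The 2 classes differed in opposite directions under the same contrast. The difference between them was not tested, since each condition has 1 library. Endothelial-like nuclei between 1000 and 2000 UMIs had a log2 ratio of 0.19 (-0.13 to 0.52) on 5 and 8 nuclei, and those between 2000 and 5000 UMIs one of -1.14 (-1.41 to -0.86) on 4 and 13 nuclei.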

How the results depend on the processing

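No paired analysis was possible because each condition has 1 library. Without replicates, nothing here measures the spread between preparations, and the depth of the pre-processed microglia-like (472 ribosomal UMIs) and endothelial-like nuclei (321) limits single genes. The direction held in all 10 alternatives for all nuclei, in all 13 for microglia-like and in all 12 for oligodendrocyte-like nuclei. For all nuclei the log2 ratio was 2.36 with no gene minimum, 2.10 with 500 genes, 2.09 with 1000 UMIs, 2.11 as a mean of per-nucleus shares, 1.88 with the median gene ratio set to 0, 1.84 with a scale without the 100 genes of most UMIs and 1.86 without barcodes of at least 10000 UMIs. For microglia-like nuclei it was 1.69 as a mean of per-nucleus shares, 0.89 and 1.23 at resolutions 0.2 and 1.0, 1.28 with at least 1000 UMIs and 1.24 in the deeper cluster. The count of genes at least 2-fold higher there was 14 at resolution 0.2, where endothelial-like nuclei were not a cluster of their own, and 20 to 25 otherwise. With classes from marker UMIs oligodendrocyte-like nuclei gave 1.40 and endothelial-like nuclei reversed to 2.06. Endothelial-like nuclei gave -0.81 with the median gene ratio set to 0 and -0.33 without 1 nucleus. The cause of these shifts was not tested. The deeper cluster, the limit of 10000 UMIs, single nuclei and all endothelial-like alternatives were chosen after seeing the data.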
